A study of Homo sapiens with 16 samples.

Results

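Histone H3 lysine 4 (H3K4) and lysine 27 (H3K27) methylation is set by a small number of enzymes, and 10 of their genes are described here among the 20007 protein-coding genes of GENCODE release 44. They were listed by name: the H3K4 methyltransferase genes KMT2A, KMT2B, KMT2D, SETD1A and SETD1B, the H3K4 demethylase genes KDM5A and KDM5B, the H3K27 methyltransferase genes EZH2 and EZH1, and the H3K27 demethylase gene KDM6B. The study asked whether octanoic acid (OA), a medium-chain fatty acid, alters the histone methylation landscape of MCF-10A, a nontransformed human breast epithelial cell line. The marks were mapped by CUT&RUN, in which a nuclease tethered to the antibody releases the DNA around a mark for sequencing. Cells in complete MEBM medium received vehicle (PBS) or 5 mM OA for 24 hours, and 3 biological replicates of each condition were profiled for H3K4me3 and for H3K27me3. Untreated cells of the same line, which received neither PBS nor OA, gave 2 H3K4me3 libraries as positive controls and 2 libraries with a nonspecific rabbit IgG as negative controls. All libraries came from this cell line, so no other breast cell or donor was sampled.

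H3K4me3 marks the start sites of genes that are active or poised. KMT2A, KMT2B, SETD1A and SETD1B work as the catalytic subunits of COMPASS-type complexes that trimethylate H3K4, whereas KMT2D mostly writes monomethylation at enhancers, and the KDM5 enzymes erase the trimethyl mark. EZH2 and its paralog EZH1 are the alternative catalytic subunits of Polycomb repressive complex 2 (PRC2), which writes H3K27me3 on silent genes, and KDM6B (JMJD3) erases it. The methyltransferases take their methyl group from S-adenosylmethionine, and the KDM5 and KDM6 demethylases are dioxygenases that consume α-ketoglutarate. The data here concern the marks that lie on the genes of these enzymes, not the amount or activity of the enzymes.

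The sequences at which the mark was measured come first. RefSeq promoters (GRCh38.p14, 250 bp before to 50 bp after a start site) were matched for 9 of the 10 genes, with 11 promoters in all. SETD1B was not matched. The promoters of KMT2B, EZH2, EZH1 and KDM6B are shown because their H3K4me3 regions were the longest and the shortest of the 10 or, for EZH2, the steadiest in vehicle, with each CpG dinucleotide in capitals. They lie at chr19:35717753-35718052 (plus strand), chr7:148884242-148884541 (minus strand), chr17:42744991-42745290 (minus strand) and chr17:7833967-7834266 (plus strand), each around the 5′ end of the first exon.
KMT2B: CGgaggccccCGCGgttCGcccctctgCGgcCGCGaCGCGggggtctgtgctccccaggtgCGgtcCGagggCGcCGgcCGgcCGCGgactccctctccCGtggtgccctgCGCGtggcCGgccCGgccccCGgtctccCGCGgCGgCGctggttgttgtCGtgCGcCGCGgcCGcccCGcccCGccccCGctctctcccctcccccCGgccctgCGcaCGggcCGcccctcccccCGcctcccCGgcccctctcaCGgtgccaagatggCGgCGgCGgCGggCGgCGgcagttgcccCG
EZH2: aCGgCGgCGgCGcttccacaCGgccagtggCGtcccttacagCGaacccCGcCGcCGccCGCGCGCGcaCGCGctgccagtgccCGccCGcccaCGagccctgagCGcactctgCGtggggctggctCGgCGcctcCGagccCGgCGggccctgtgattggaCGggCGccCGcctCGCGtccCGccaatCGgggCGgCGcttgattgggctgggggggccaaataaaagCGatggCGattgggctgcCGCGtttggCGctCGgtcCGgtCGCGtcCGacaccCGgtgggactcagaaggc
EZH1: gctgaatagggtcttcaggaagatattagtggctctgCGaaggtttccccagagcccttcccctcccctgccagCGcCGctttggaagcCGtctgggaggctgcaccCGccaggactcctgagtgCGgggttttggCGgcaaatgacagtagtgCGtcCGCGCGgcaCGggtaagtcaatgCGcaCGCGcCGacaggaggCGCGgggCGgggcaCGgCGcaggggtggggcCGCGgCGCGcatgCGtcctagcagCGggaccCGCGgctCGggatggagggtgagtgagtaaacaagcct
KDM6B: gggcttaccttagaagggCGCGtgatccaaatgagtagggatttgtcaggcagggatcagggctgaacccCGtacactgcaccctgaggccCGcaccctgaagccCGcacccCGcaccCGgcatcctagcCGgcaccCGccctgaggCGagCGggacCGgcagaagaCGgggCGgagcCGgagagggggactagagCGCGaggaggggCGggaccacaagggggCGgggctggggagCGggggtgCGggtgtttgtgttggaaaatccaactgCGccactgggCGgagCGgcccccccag

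The promoters of the enzymes held 2 to 48 CpG. KMT2B had 48 CpG in its 300 bp and EZH2 had 46, above 98% and 97.1% of the 35116 RefSeq promoters, while EZH1 had 30 (above 77.6%) KDM6B had 24 (above 66.1%) and KDM5A had 20 (above 58.8%). The median was 30 CpG over the 11 promoters, which include an alternative start of EZH2 (45) and of KDM6B (2, above 11% of promoters), and 14 over all RefSeq promoters. A GC box (GGGCGG, either strand) was present in 10 of the 11, all but the alternative KDM6B start, and in 45% of all promoters. The TATA box (TATAAA) was in 0 of the 11 against 11.5% of all promoters, the CCAAT box (CCAAT) in 1 against 34.6%, and an E2F site (TTTGGCGC or TTTCGCGC) in 1 against 1.15%. EZH2 held both the CCAAT box and the E2F site in the sequence printed above. Of the sites of stress response factors, the cyclic AMP response element (TGACGTCA, 1.85% of all promoters), the CHOP-ATF4 composite site (TGATGCAA, 0.866%) and the AP-1 site (TGACTCA or TGAGTCA, 4.95%) were in none of the 11 windows of these enzymes, searched on both strands.

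Each deposited list gives peak positions with the caller's fold enrichment over local background and its significance as −log10 p and −log10 q. H3K4me3 peaks that shared 1 bp or more among the 6 vehicle and OA libraries formed a merged region if 2 or more libraries contributed, and the region belonged to a gene if it lay within 3 kb of any of its start sites. Promoter length is the number of base pairs that the peaks of a library cover in the regions of a gene. The lists hold between 16086 and 21033 H3K4me3 peaks in the vehicle and OA libraries, and between 9091 and 47648 H3K27me3 peaks. They hold no read totals, so the depth of the libraries is unknown. Vehicle replicate 3 and OA replicate 1 stood apart from the other libraries: the median H3K4me3 promoter length over genes was 942 bp and 1222 bp there, and 1484 to 1576 bp in the other four. The pileup of reads at the summit, solved from the fold and p-value of each peak, had a median over the 10 start sites of 39 and 51 in these libraries and 102 to 168 in the others. Their values are therefore given with each result, and what they contribute to it was not tested except where a value without them is given. Of the breast epithelial markers, KRT5, KRT17, ITGB4 and KRT18 had H3K4me3 in all 6 libraries, whereas KRT14 had a peak in 2 vehicle and 0 OA libraries, TP63 in 2 of 3 of each, and LAMB3 and CDH1 in 2 vehicle and 3 OA libraries. ESR1, PGR, PTPRC, CD3E and PECAM1 had none, nor had MTAP and CDKN2A, which MCF-10A has lost.

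All 10 enzyme genes had an H3K4me3 peak in a region within 3 kb of a start site in all 6 vehicle and OA libraries, as did 56.5% of protein-coding genes. They had 15 merged regions, of which 10 overlapped the main start site, the GENCODE canonical transcript start. The others lay upstream of SETD1B and KDM5B, in an intron of SETD1B, at an internal start of KDM6B and beyond the end of KMT2B. Neither IgG library had a peak in any of the 15 regions. Some main start regions also held starts of other genes, so their lengths are not of the enzyme gene alone. That of KDM5A held a start of the protein-coding gene CCDC77, and that of SETD1B starts of RHOF and LINC01089. Those of SETD1A and KDM6B held starts of unnamed lncRNA genes. At 6 of the 10 main starts most of the peak length lay downstream, inside the gene, in each of the 6 libraries: at KDM5B 90.6% to 100% of it, at EZH1 88.4% to 100%, at KDM5A 75.6% to 90%, at EZH2 64.5% to 72.4%, at KMT2D 60.1% to 79.7% and at SETD1A 59.4% to 71.1%. KMT2A (38.2% to 60.9%), SETD1B (40.5% to 100%) and KDM6B (46.4% in vehicle replicate 3, and up to 90% elsewhere) varied between libraries. At KMT2B the downstream share was 35.6% to 45.2%. Its start site fell between 2 separate peaks in 4 of the 6 libraries, and inside a peak only in vehicle replicate 2 and OA replicate 3. The start sites of KMT2D, SETD1A and KDM5A lay inside a peak in 6 of 6 libraries.

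**Figure D1:**
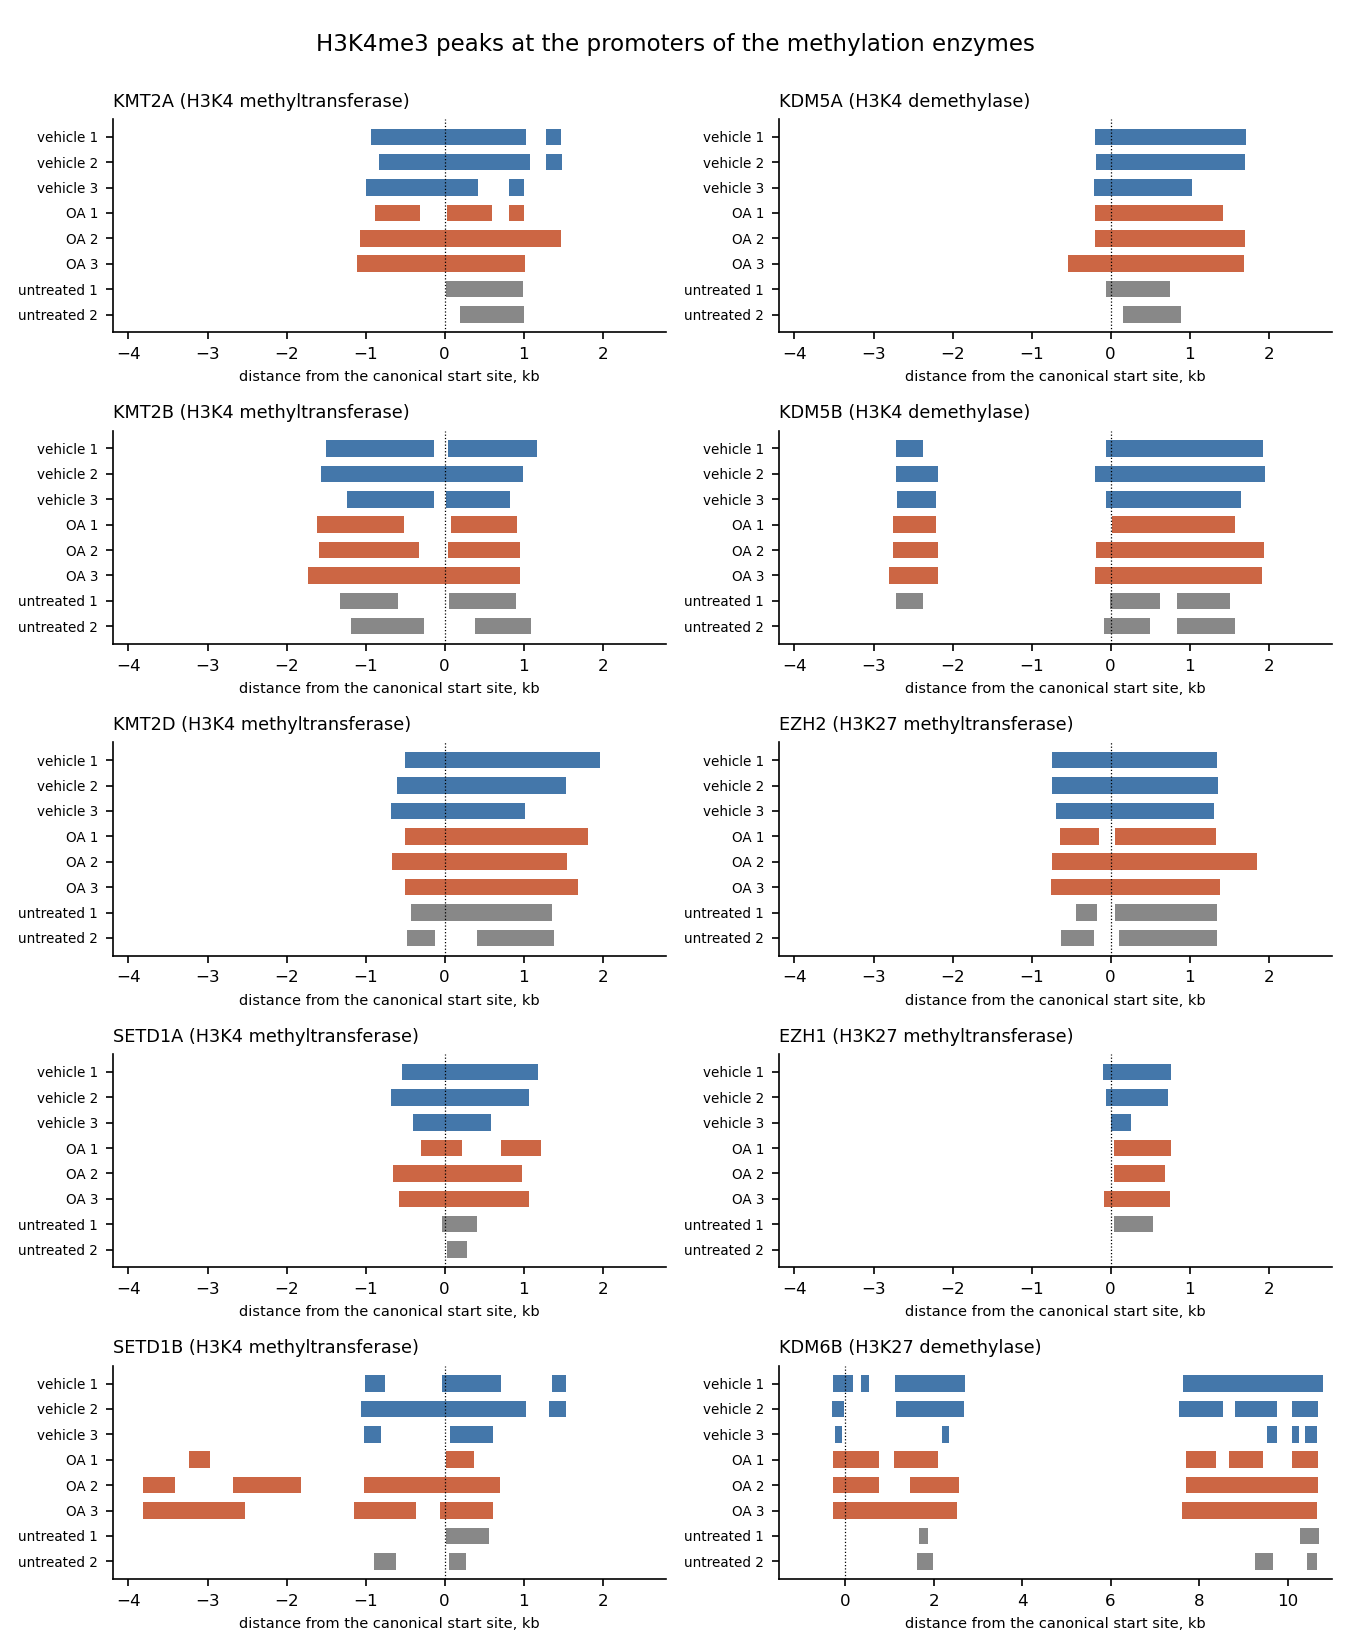
H3K4me3 peaks of each library around the canonical start site (dotted line) of the 10 genes, with distance in kb on the horizontal axis, positive into the gene, and bars for the peaks of vehicle (blue), OA (orange) and untreated (grey) libraries. Only OA libraries have peaks between 1815 and 3811 bp upstream of SETD1B, and the KDM6B panel extends to the internal region; the KMT2B region beyond the end of the gene is outside the panel.

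Among the H3K4 methyltransferase genes, KMT2B, whose product acts at CpG-rich promoters, had the longest H3K4me3 on average. Its promoter length was 3183, 2848 and 1902 bp in vehicle replicates 1, 2 and 3, and 2666, 2612 and 3438 bp in OA replicates 1, 2 and 3. The shortest value was that of vehicle replicate 3, and the OA values lay within or above the vehicle range. In OA replicate 2 SETD1B was longer. The values include the region beyond the end of the gene, and the start region of KMT2B alone measured 1946 and 2170 bp in OA replicates 1 and 2, less than KMT2D there. KMT2D, the enhancer methyltransferase, measured 2469, 2139 and 1697 bp in vehicle and 2313, 2210 and 2183 bp in OA. Its OA libraries were nearly equal, 2235 ± 68.6 bp (SD, n = 3), while the vehicle libraries spread around 2102 ± 387 bp. KMT2A (MLL1) measured 2155, 2113 and 1614 bp in vehicle and 1320, 2540 and 2123 bp in OA. Both its highest and its lowest value were OA libraries. SETD1A measured 1725, 1735 and 993 bp in vehicle and 1033, 1634 and 1645 bp in OA, and its paralog SETD1B 1175, 2305 and 762 bp in vehicle and 615, 2982 and 2726 bp in OA. SETD1B was the most uneven of the 5, with a mean of 1414 ± 799 bp in vehicle and 2108 ± 1299 bp in OA (SD, n = 3), since OA replicate 1 gave the lowest and OA replicates 2 and 3 the highest values.

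The H3K4 demethylase gene KDM5A measured 1908, 1894 and 1250 bp in vehicle and 1618, 1901 and 2232 bp in OA. KDM5B measured 2316, 2674 and 2192 bp in vehicle and 2112, 2694 and 2732 bp in OA. In both genes OA replicate 3 was the longest library, and OA replicate 1 lay below 2 or more vehicle libraries. The KDM5B values include a region upstream of the gene, at lncRNA starts, described below. The start region of KDM5B alone measured 1976, 2147 and 1703 bp in vehicle and 1565, 2120 and 2115 bp in OA. In that region vehicle replicate 2 was the longest library. EZH2, the PRC2 subunit of dividing cells, was the steadiest in vehicle, at 2087, 2102 and 1989 bp (2059 ± 61.4 bp, SD, n = 3), and measured 1761, 2598 and 2138 bp in OA. EZH1, the subunit that predominates in resting cells, had the shortest H3K4me3 of the 10 in 5 of the 6 libraries, at 863, 778 and 258 bp in vehicle and 724, 647 and 831 bp in OA. In OA replicate 1 SETD1B was shorter, and the 3 OA values of EZH1 lay inside its vehicle range. KDM6B had the longest in 5 of the 6 libraries, at 5387, 4306 and 997 bp in vehicle and 4045, 5147 and 5885 bp in OA, summed over its main and internal start regions. Vehicle replicate 3 alone put KDM6B below 6 of the other 9 enzymes.

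**Figure D2:**
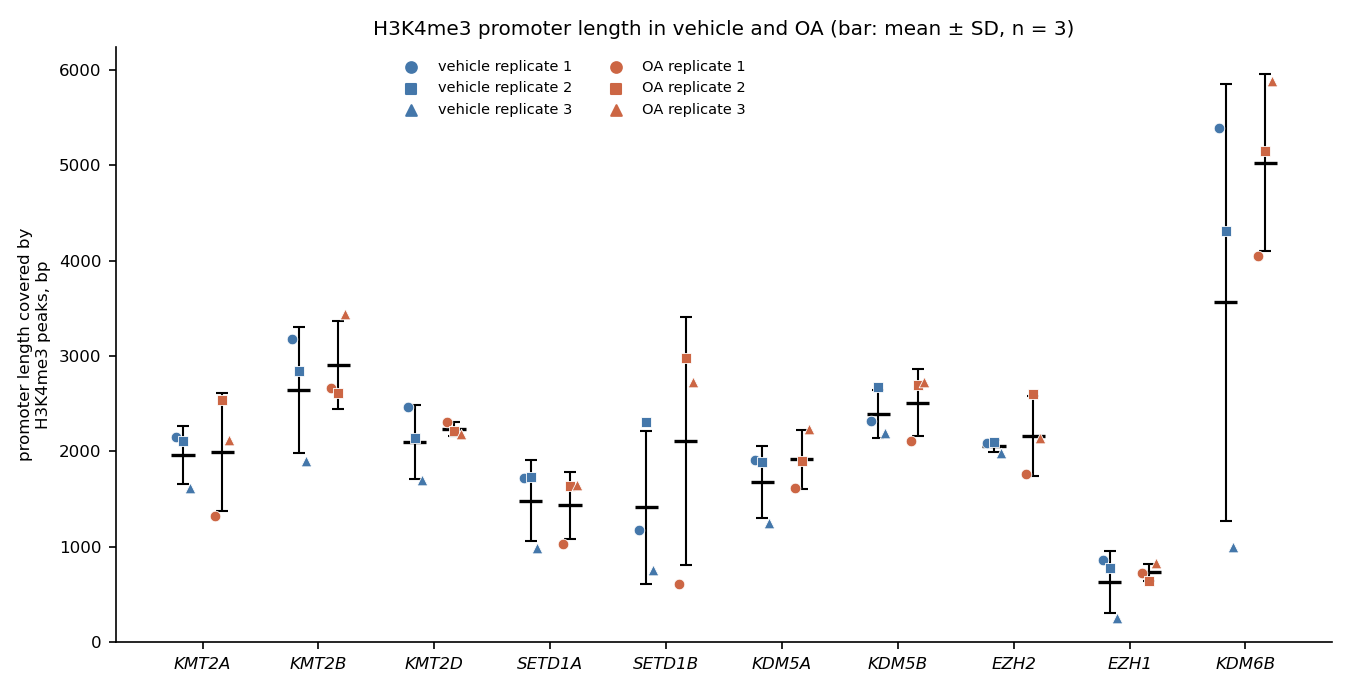
H3K4me3 promoter length in bp (vertical axis) of the 10 genes in each vehicle (blue) and OA (orange) library, with marker shape for the replicate, a horizontal bar for the mean and whiskers for the SD (n = 3). Vehicle and OA libraries overlap in every gene, KDM6B is longest and EZH1 shortest on average, and the lowest point of each gene is vehicle replicate 3 or OA replicate 1.

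Ordered by mean length, KDM6B (3563 ± 2287 bp in vehicle, 5026 ± 926 bp in OA) was followed by KMT2B, KDM5B, KMT2D and EZH2 in both conditions, and EZH1 came last (633 ± 328 bp and 734 ± 92.4 bp, SD, n = 3 each). The ranges of neighbours in this order overlapped, except that in OA every KDM6B value lay above every KMT2B value and every SETD1A value above every EZH1 value. Among the 11310 genes with H3K4me3 in all 6 libraries, the mean length of KDM6B was above 99.8% of genes, that of KMT2B above 97.2%, KDM5B 94.7%, KMT2D 90.3%, EZH2 88.9%, KMT2A 85.1%, KDM5A 77.7%, SETD1B 75.9% and SETD1A 56.5%. EZH1 was above only 3.06% of genes. These lengths sum all regions of a gene. The start region of KDM5B alone averaged 1942 bp in vehicle and 1933 bp in OA, below KMT2D and EZH2. The enzymes thus lay mostly in the longer part of the distribution, which is a description of genes listed by name and was not tested.

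OA and vehicle did not separate in promoter length for any of the 10 genes. Every OA library was longer than every vehicle library in 0 of 10 enzymes, against 6.16% of the 11310 genes, and shorter in 0 of 10, against 0.345%. By exact permutation of the 6 library labels (two-sided, on the mean difference), which with 3 libraries against 3 cannot go below p = 0.1, the p-values ranged from 0.5 to 0.9. limma on log2 length, fitted over all 11310 genes, called 0 genes longer and 0 shorter at an adjusted p under 0.05 (0% in each direction), and 272 genes had an unadjusted p under 0.05, none of them an enzyme gene. The largest difference among the enzymes was that of KDM6B, 0.80 on the log2 scale with an SE of 0.59 (adjusted p = 1), followed by SETD1B with 0.43 (SE 0.66) and EZH1 with 0.39 (SE 0.45), each with an adjusted p of 1. Within 1 kb of a start site, which leaves out the upstream region described below, the difference of SETD1B was -0.41. KMT2A and SETD1A had differences of -0.02 (SE 0.29) and -0.03 (SE 0.31). Without vehicle replicate 3 the difference of KDM6B was 0.04 and that of EZH1 -0.17, and the difference of SETD1B ranged from -0.71 without OA replicate 3 to 1.16 without OA replicate 1, each with an adjusted p of at least 0.842 by limma. The SEs were between 0.21 and 0.66 on the log2 scale over the 10 enzymes. No gene was called although the differences over all genes ranged from -1.17 to 2.31. Differences as large as that of KDM6B, above its SE, could thus be missed with 3 libraries each.

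The whole table was shifted toward OA, since the median log2 difference over all genes was 0.13, and 75.9% of genes had a positive difference. The median of the 10 enzymes was also 0.13, with 8 of 10 positive. After the log2 lengths of each library were centred on their median, the medians were -0.02 over all genes and -0.03 over the enzymes, with 5 of 10 positive, and KMT2D, KDM5B and EZH2 changed sign. KDM6B kept the largest difference, 0.64 (adjusted p = 0.683 by limma), above 94.9% of genes. Without vehicle replicate 3 and OA replicate 1, every OA library was longer in 3 of 10 enzymes (SETD1B, KDM5B and EZH2), against 29.3% of all genes, and shorter in 1 (SETD1A), against 17.5%. In the start regions of SETD1B and KDM5B alone, without their upstream regions, vehicle and OA overlapped in these libraries. In the full set, the shortest library was vehicle replicate 3 in 6 of the enzymes and OA replicate 1 in 4, against 77% and 20.9% of all genes.

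**Figure D3:**
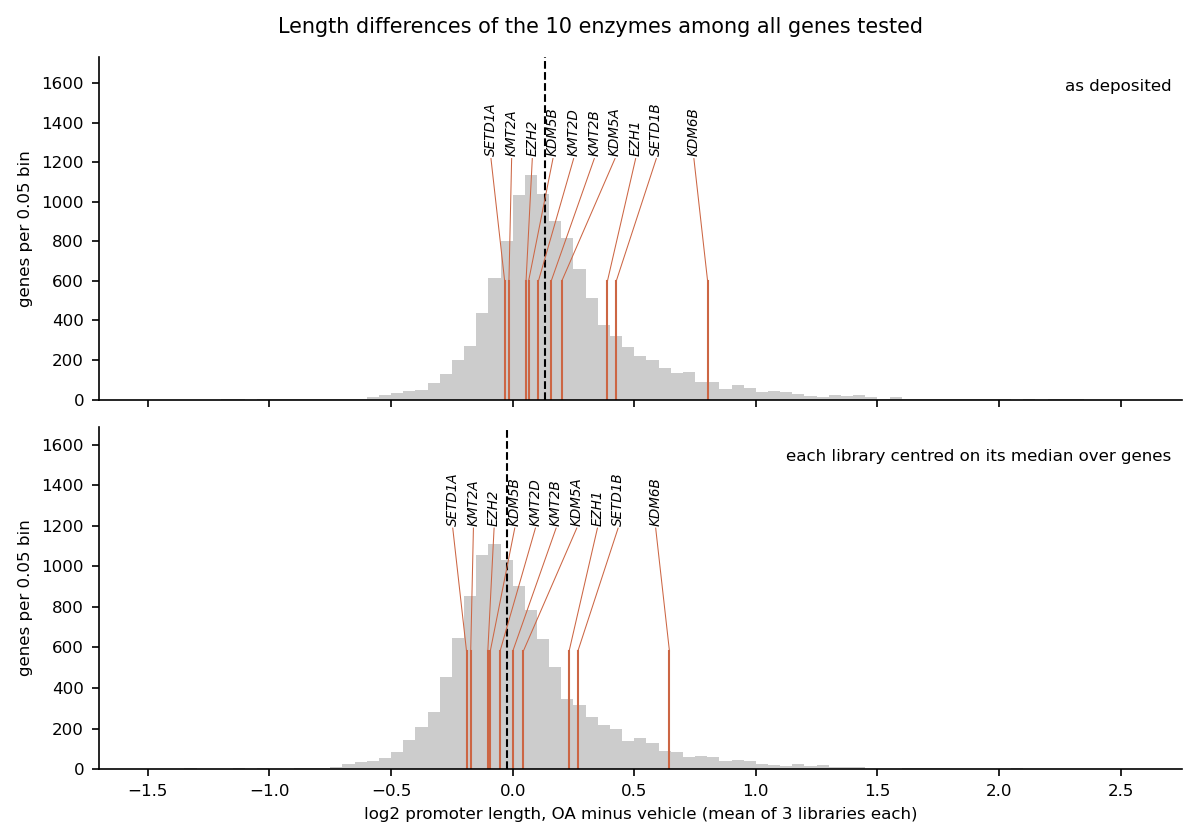
Histograms of the log2 difference in H3K4me3 promoter length (OA minus vehicle, means of 3 libraries) over the 11310 genes tested, in bins of 0.05, as deposited (top) and after centring each library on its median (bottom). Orange lines mark the 10 enzymes and the dashed line the median of all genes, 0.13 above and -0.02 below; 9 of the enzymes lie in the body of the distribution and KDM6B lies in its right tail.

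The strength of the strongest peak was compared as its percentile, which is the rank of its −log10 p among the peaks of the same library. In the regions over the main start sites, the percentile was highest on average at KDM5B, at 96.8, 95.6 and 64.7 in vehicle and 98.6, 90.3 and 92.4 in OA. It was 91.6, 87.3 and 68.2 in vehicle, against 92.8, 84.7 and 71.4 in OA at KMT2B, 81.3, 74.7 and 92.8 against 74, 77 and 71.2 at KMT2D, and 73.1, 77.1 and 95.5 against 61, 87.8 and 76.9 at EZH2. At KMT2D and EZH2 it was vehicle replicate 3, the library with the shortest peaks, that ranked highest. SETD1A measured 57, 54.4 and 51.2 in vehicle and 63.9, 54.7 and 92.8 in OA, with a mean difference of 16.3, and of 5.14 without OA replicate 3. KDM6B measured 74.9, 53.1 and 35.3 in vehicle against 73.1, 90.7 and 64.2 in OA, the largest mean difference at a main start, 21.5 (two-sided exact permutation test, p = 0.3). This was 12 without vehicle replicate 3, where that of SETD1A was 14.8, and 31.7 without vehicle replicate 1. Without OA replicate 2 the KDM6B difference was 14.2 and that of SETD1A 24.2. KMT2A, SETD1B, KDM5A and EZH1 lay between 42.9 and 92.3 with mean differences of 1.99 to 6.91.

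The mean percentile at the main start was higher in OA in 8 of the 10 enzymes, the exceptions being KMT2D and EZH2, and in 51.9% of all genes compared. Vehicle and OA overlapped in all 10: 0 had every OA library higher, against 8.94% of the 10993 genes whose nearest region had a peak in all 6 libraries, and 0 had every OA library lower, against 7.8%. The exact p-values ranged from 0.2 to 0.9.

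The fold enrichment of the strongest peak was lower on average in OA in 10 of the 12 regions with a peak in all 6 libraries, against 76.4% of all such regions, as a description, since the caller's folds are not scaled between libraries. The median fold over the 11071 regions found in all 6 libraries was 8.82, 10.4 and 10.4 in vehicle, against 7.18, 9.93 and 9.45 in OA. Groups did not overlap in 2 of the 12 enzyme regions, both with vehicle higher, against 10.5% of all such regions, and 0 had OA higher, against 0.822%. In the main start region of SETD1B the fold was 4.87, 5.23 and 6.05 in vehicle, against 4.34, 3.53 and 4.17 in OA. These summits were not at one position: they lay 89, 134 and -967 bp from the start in vehicle, and 121, -846 and -849 bp in OA. The pileup at them was 97, 128 and 24 reads in vehicle, against 63, 140 and 166 in OA, over a background of 19.1, 23.6 and 3.13 and of 13.7, 38.9 and 39 reads. In OA replicates 2 and 3, then, the lower fold stood on both a higher pileup and a higher background. Their summits lay upstream of those of vehicle replicates 1 and 2, so unlike positions are compared. At KDM5B the fold was 6.35, 7.52 and 7.08 in vehicle, against 6.01, 5.79 and 5.44 in OA. EZH1, the narrowest enzyme promoter, had the highest folds, 12.8, 16.1 and 14 in vehicle and 9.46, 14 and 14.3 in OA, over backgrounds of at most 4.65 reads.

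**Figure D4:**
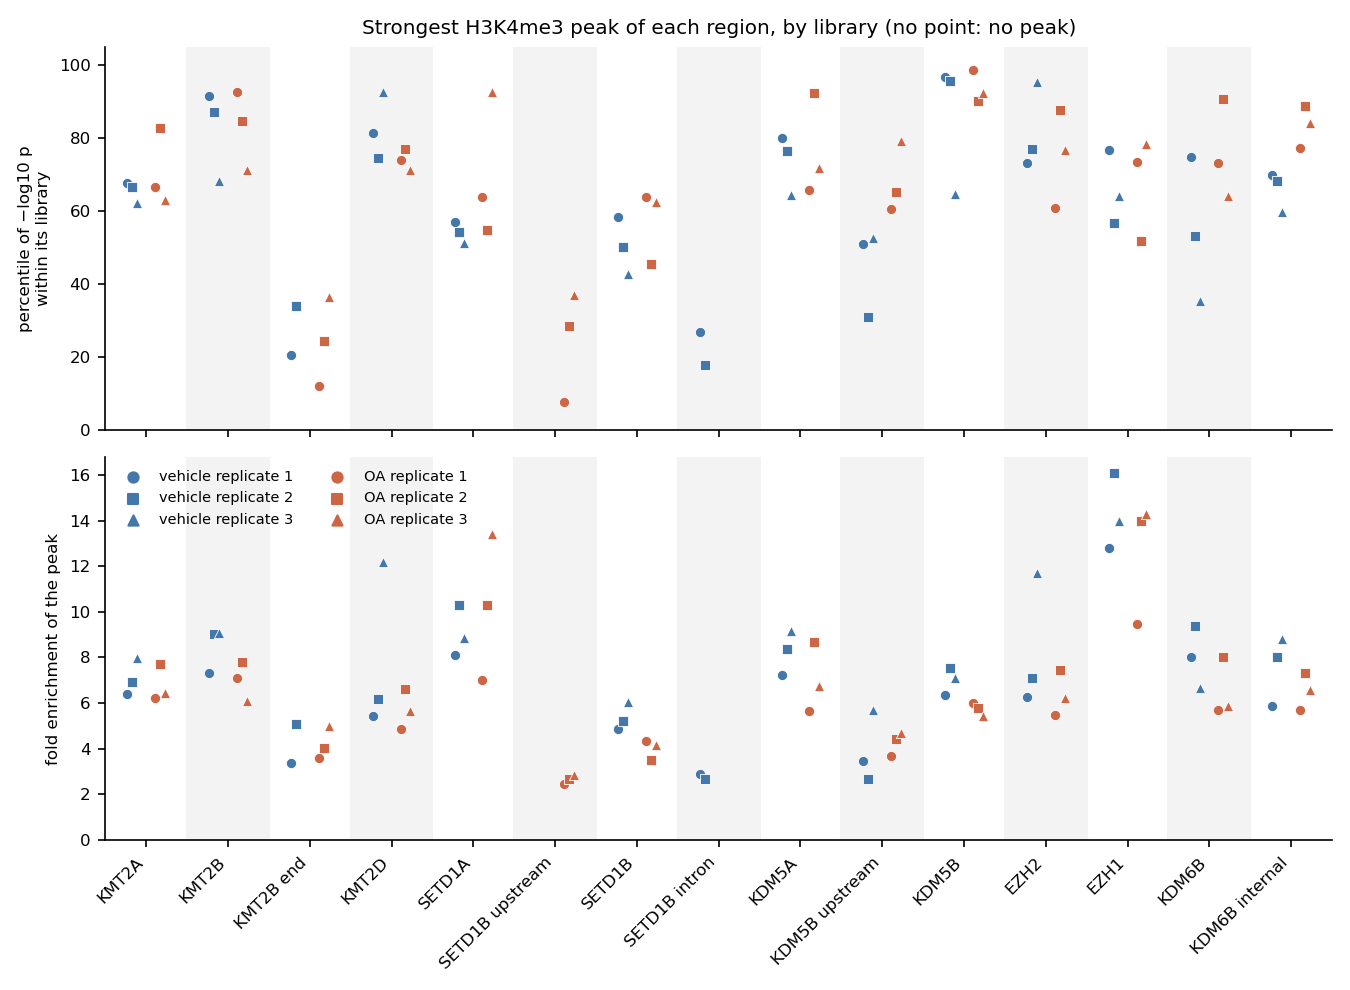
Percentile of −log10 p within its library (top) and fold enrichment (bottom) of the strongest H3K4me3 peak in each of the 15 regions of the 10 genes, by vehicle (blue) and OA (orange) library, with marker shape for the replicate and no point where no peak was called. OA points lie above all vehicle points in the percentile of the KDM5B upstream and KDM6B internal regions, and vehicle points lie above all OA points in the fold of the SETD1B and KDM5B start regions.

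The region upstream of SETD1B was called in OA alone. It spans chr12:121800198-121802194 (hg38), from 3811 to 1815 bp before the SETD1B start, in sequence upstream of that gene, and holds annotated start sites of RHOF and of the lncRNA gene LINC01089 and another lncRNA. It covered 261, 1265 and 1280 bp in OA replicates 1, 2 and 3 and 0 bp in all vehicle libraries, and neither untreated nor IgG libraries had a peak. The pileup was 36, 104 and 117 reads, the fold 2.46, 2.68 and 2.84, and the percentile 7.71, 28.4 and 37.1, so that all of these were weak peaks for their library. Regions called in 3 OA and 0 vehicle libraries made up 1.84% of the 18734 merged H3K4me3 regions, and 1 of the 15 enzyme regions was of this kind. With a q-value of at most 1e-05, or with the 16086 strongest peaks of each library, it was called in 2 OA libraries, since OA replicate 1 lost its peak. The peak of OA replicate 1 (3235 to 2975 bp before the start) overlapped that of OA replicate 3 (3811 to 2532 bp) but neither of the 2 peaks of OA replicate 2, so that without OA replicate 3 there was no region shared by 2 libraries. A second narrow SETD1B region of 220 bp, in an intron and 1319 bp past the start, was called only in vehicle replicates 1 and 2 (182 and 214 bp). Regions with at least 2 vehicle libraries and no OA library made up 1.99% of all regions.

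The region upstream of KDM5B (chr1:202810605-202811223) lies 2184 bp before the main start of the gene, at the start of the lncRNA genes PCAT6 and ENSG00000260021. It covered 340, 527 and 489 bp in vehicle and 547, 574 and 617 bp in OA, and its percentile was 50.9, 30.9 and 52.7 in vehicle, against 60.7, 65.2 and 79.2 in OA. Every OA library lay above every vehicle library in both measures (mean differences of 127 bp and 23.6 percentile points). The fold overlapped, at 3.47, 2.69 and 5.69 in vehicle and 3.68, 4.44 and 4.71 in OA. In the internal region of KDM6B (chr17:7841768-7845022, introns and the third exon, 7551 to 10805 bp past the main start), the percentile was 69.9, 68.3 and 59.9 in vehicle, against 77.3, 88.9 and 84.2 in OA, again without overlap (difference 17.4). The untreated libraries measured 97.8 and 43.3 there, outside the range of the vehicle and OA libraries on both sides. Its length overlapped, at 3166, 2524 and 661 bp in vehicle and 2016, 2990 and 3068 bp in OA. The fold there overlapped too, at 5.86, 8.02 and 8.8 in vehicle and 5.71, 7.3 and 6.56 in OA. Unlike the percentile, the fold had the lower mean in OA (6.53, against 7.56 in vehicle). In all, OA lay above vehicle in percentile in 2 of 12 enzyme regions, against 9.38% of the regions found in all 6 libraries, and in length in 1 of 12, against 6.68%, whereas vehicle lay above OA in 0 of 12 in either measure, against 7.1% and 0.533%. Leaving out any replicate in turn, these differences at KDM5B ranged from 16.6 to 27.5 percentile points and at KDM6B from 14.4 to 20.5. The region beyond the end of KMT2B (855 bp at chr19:35740244-35741098) holds the start of IGFLR1, and was called in all OA libraries and in vehicle replicates 1 and 2, with 292 to 746 bp, and in no untreated library.

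The sequences under these regions are shown for the 201 bp around the summit of the OA library with the highest percentile, with CpG in capitals (hg38). The SETD1B upstream window is chr12:121800920-121801120 on the plus strand, within an exon of the unnamed lncRNA and partly of LINC01089. The KDM5B upstream window is chr1:202810906-202811106 on the minus strand, within PCAT6 exons, and the KDM6B internal window is chr17:7844602-7844802 on the plus strand, in an intron.
SETD1B upstream: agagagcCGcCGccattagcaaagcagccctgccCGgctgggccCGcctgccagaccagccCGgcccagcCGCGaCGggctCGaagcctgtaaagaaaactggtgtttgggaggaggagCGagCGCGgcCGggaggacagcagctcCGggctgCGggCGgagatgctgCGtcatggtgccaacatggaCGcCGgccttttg
KDM5B upstream: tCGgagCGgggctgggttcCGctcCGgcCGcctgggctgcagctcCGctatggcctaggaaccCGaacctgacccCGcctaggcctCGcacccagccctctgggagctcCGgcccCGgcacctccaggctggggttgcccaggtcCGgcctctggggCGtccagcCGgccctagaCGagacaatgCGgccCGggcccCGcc
KDM6B internal: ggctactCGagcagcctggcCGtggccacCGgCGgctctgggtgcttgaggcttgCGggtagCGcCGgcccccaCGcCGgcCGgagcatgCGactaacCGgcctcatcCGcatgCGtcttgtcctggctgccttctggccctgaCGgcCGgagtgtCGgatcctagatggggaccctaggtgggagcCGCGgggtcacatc
They had 19, 18 and 19 CpG in 201 bp and a GC content of 68.7%, 75.1% and 70.1%. A GC box was found in the SETD1B window, and none of the other motifs searched above was found in any of these windows.

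In the untreated controls, 9 of the 10 enzymes had an H3K4me3 peak in the region over the main start in both libraries, and EZH1 in 1 of 2. The share of all genes was not computed for these libraries, so this count is a description only. By median, the untreated peaks at the main start regions were shorter and shallower than in the vehicle and OA libraries. The median length was 890 and 811 bp, against 1432 to 2138 bp. The median pileup was 30.5 and 23 reads, against 39 to 168. This did not hold at every gene: SETD1B measured 543 and 492 bp untreated, against 354 bp in OA replicate 1. EZH2 was among the longest in the untreated libraries, at 1556 and 1649 bp, and KMT2B measured 1583 and 1638 bp. KDM6B had only 218 and 371 bp in its main start region, at 1666 to 1883 and 1619 to 1989 bp past the start and not over it. Vehicle replicate 3 had 336 bp in this region, at other positions (-238 to -59 and 2196 to 2351 bp from the start). The upstream region of KDM5B had a peak of 339 bp in the first untreated library. The untreated lists hold 12924 and 11242 peaks, fewer than any vehicle or OA list, and whether the shorter peaks reflect the cells or the depth cannot be told apart.

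None of the 10 enzymes carried H3K27me3. No H3K27me3 library had a peak within 3 kb of any start site of these genes, whereas 13.8% of all protein-coding genes had a merged H3K27me3 region there. Among the 11310 genes with H3K4me3 in all 6 libraries, 3.76% had such a region, so absence was the rule for genes marked like the enzymes. The bodies of the 10 genes were likewise free of H3K27me3 peaks in all 6 libraries. Over all genes, 29.7% had a peak of at least 1 library in the body, and 12.8% of the genes with H3K4me3 in all 6. The nearest peak to a start site was 8636 bp from SETD1B, in OA replicate 1, and 11447 bp from KDM5B, in vehicle replicate 1, while the nearest to EZH2, which encodes the enzyme that writes the mark, was 125409 bp away. These lists differ in size, with 9091 peaks in OA replicate 3 and 47648 in vehicle replicate 2, so a weak domain could be missed in the smaller ones.

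The partners of these enzymes were taken from a list of 46 further genes of H3K4 and H3K27 methylation, of which 43 had H3K4me3 in all 6 libraries. The others were EZHIP, a PRC2 inhibitor of germ cells, with no peak in any library, and PRDM9, the meiotic H3K4 methyltransferase, and the PRC1 subunit gene CBX6, both without a peak in vehicle replicate 3 alone. limma called 0 of the 43 at an adjusted p under 0.05, and 1 (CBX7) had an unadjusted p under 0.05. The median log2 difference was 0.14, close to the 0.13 of all genes, with 36 of 43 positive, and -0.02 after centring, with 19 positive. By group the medians were 0.09 for the 13 COMPASS genes, 0.07 for 11 PRC2 genes and 0.21 for 12 PRC1 genes, and after centring -0.06, -0.09 and 0.05.

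Every OA library was longer than every vehicle library in 3 of the 43 partner genes with a peak in all 6 libraries, a share near the 6.16% of all genes, and shorter in 0, against 0.345%. The same held for CBX6, which had 0 bp in vehicle replicate 3. The 3 genes were HCFC1, which encodes a COMPASS cofactor, SETD7, an H3K4 monomethyltransferase gene, and PCGF1, which encodes a subunit of variant PRC1. PCGF1 measured 1362, 1212 and 567 bp in vehicle and 1483, 1815 and 1863 bp in OA (log2 difference 0.81, SE 0.35, limma adjusted p = 1). HCFC1 measured 1969, 1815 and 1440 bp in vehicle and 2240, 2090 and 2716 bp in OA, and SETD7 1915, 1681 and 1748 bp against 1995, 1980 and 2007 bp. Unlike the enzymes, BMI1, CBX2, CBX7 and CBX8, which encode PRC1 subunits, had H3K27me3 beside H3K4me3 at their promoters. BMI1 had it in 3 vehicle libraries (535, 598 and 1059 bp) and in OA replicate 1 alone (706 bp), CBX2 in 2 vehicle and 3 OA libraries, CBX8 in 3 and 2, and CBX7 in 1 and 2. No gene of the COMPASS, H3K4 demethylase or PRC2 groups had any.

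**Figure D5:**
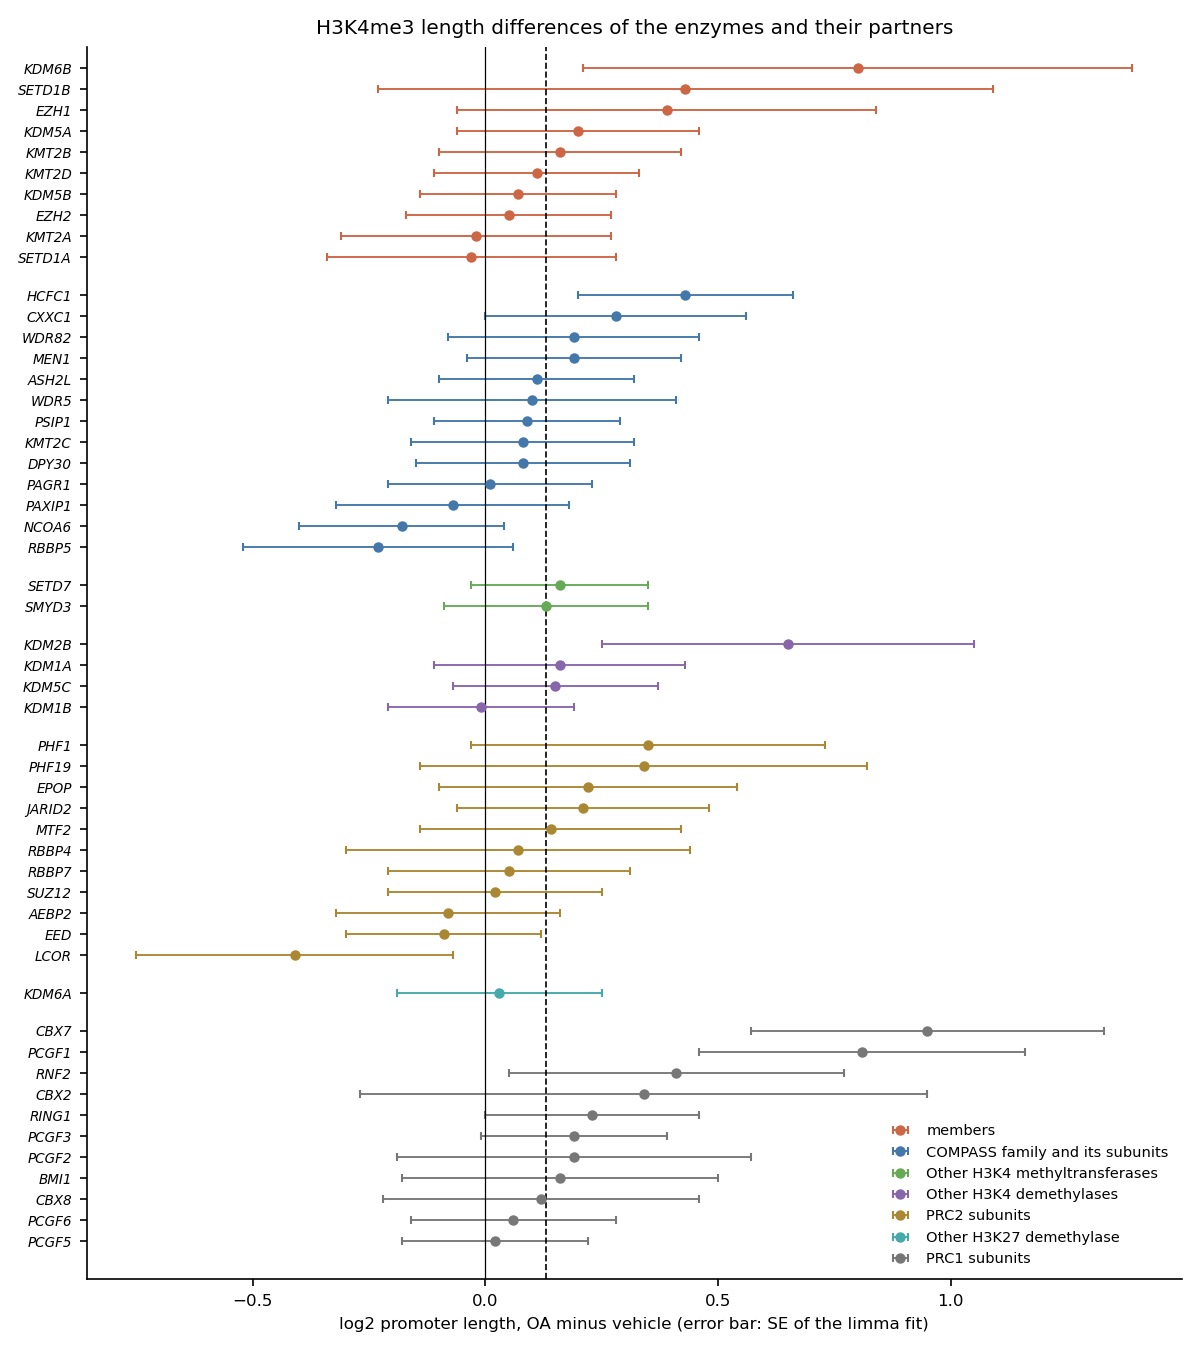
log2 difference in H3K4me3 promoter length (OA minus vehicle, horizontal axis) of the 10 enzymes and 42 of the 43 partner genes, with the SE of the limma fit as error bars, colours for the groups and a dashed line at the median of all genes, 0.13. Most error bars cross 0, and no gene passed the test.

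The genes whose log2 lengths over the 6 libraries were closest to those of the 3 enzymes with the largest differences were found by the mean absolute difference among 11309 other genes. For KDM6B they were MCRIP2 (0.24) and KLHL21 (0.26), which shared its fall in vehicle replicate 3, to 1336 and 2556 bp from 4183 bp or more in vehicle replicates 1 and 2. For SETD1B they were the replication-dependent histone genes H1-5 and H2AC16, which share a region (0.25 each), and for EZH1 they were CNTD1 and COA3, which share a region (0.09 each).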

How the data were processed

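Cells were processed with a CUT&RUN kit and the libraries prepared for Illumina sequencing. The submitters' processing notes name MACS2 2.2.7.1, SICER, DiffBind 3.9 and ChIPseeker 1.8.6, and the hg38 build. Per the methods, the authors called H3K4me3 narrow peaks with MACS2 and H3K27me3 broad peaks with SICER2, although the deposited H3K27me3 lists have the broadPeak layout of MACS2. Each library had its own list. The aligner, the treatment of duplicate reads and the control used for calling are not given in the sources used here. The deposited fold enrichment is a ratio of the peak to its local background that the authors' caller computed, and the deposited −log10 p and −log10 q come from the same caller and rise with depth. The narrow lists hold q-values of at most 0.01 and the broad lists of at most 0.1. No read counts were used, so DiffBind was not rerun and the depth is unknown. With 3 libraries per group, their number limits the precision.

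Peaks off the numbered, X and Y chromosomes were left out. Merged regions, promoter lengths and percentiles were computed as described above, with start sites of GENCODE release 44. log2 length was tested with limma 3.58.1 (R 4.3.3, Benjamini-Hochberg adjustment over all genes tested), and single values with two-sided exact permutation tests (scipy 1.17.1). The pileup of a narrow peak was solved from its fold, (pileup + 1)/(background + 1), and its Poisson p-value, over pileups of up to 1500 reads, for all 104 enzyme peaks taken. Scripts were tested on simulated data. Python 3.11.15, numpy 2.4.6, pandas 2.3.3 and matplotlib 3.10.9 were used.

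The enzymes and the list of partners were chosen with earlier results of these data known. All enzymes were named. Of the partners, those without H3K4me3 in all 6 libraries, those with H3K27me3 and up to 5 with groups that did not overlap and the largest difference were named, with the 2 genes closest in pattern to each of the 3 enzymes with the largest difference. Alternatives were a q-value of at most 1e-05, equal numbers of peaks, regions of any library, 1 kb or the canonical start alone, at least 50% cover, removal of IgG regions, centring, a replicate block, joining of H3K27me3 peaks within 5 kb and leaving out each replicate. Gene expression was not analysed here, and 1 partner gene is not reported by name.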

Additional observations from a re-analysis of the deposited data

How the results depend on the processing

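No enzyme passed the length test under any alternative, and of 147 log2 differences of the enzymes recomputed, 127 kept their direction and 20 turned (76 and 14 of 90 for the percentiles), mostly where a replicate was left out. Leaving out each replicate in turn, the log2 length difference ranged from -0.22 to 0.26 at KMT2A, -0.06 to 0.31 at KMT2B, -0.04 to 0.23 at KMT2D, -0.30 to 0.19 at SETD1A, -0.71 to 1.16 at SETD1B, -0.00 to 0.32 at KDM5A, -0.00 to 0.19 at KDM5B, -0.09 to 0.20 at EZH2, -0.17 to 0.70 at EZH1 and 0.04 to 1.26 at KDM6B. The percentile difference ranged from -0.729 to 9.06 at KMT2A, -6.46 to 6.42 at KMT2B, -4.91 to 8.43 at KDM5A, -2.47 to 13.6 at KDM5B, -13.0 to 0.446 at EZH2, -3.29 to 10.1 at EZH1, -13.0 to -3.93 at KMT2D, 5.14 to 24.2 at SETD1A, 3.11 to 12.8 at SETD1B and 12 to 31.7 at KDM6B. The number of enzymes with every OA library longer ranged from 0 to 3 (3 without OA replicate 1: SETD1B, KDM5B and EZH2) and shorter from 0 to 1 (SETD1A without vehicle replicate 3), and of those with every OA library higher in percentile from 0 to 2 (SETD1A and KDM6B without vehicle replicate 1, SETD1A and SETD1B without OA replicate 2) and lower from 0 to 1 (KMT2D without vehicle replicate 2 or OA replicate 2). Without both vehicle replicate 3 and OA replicate 1, the numbers were 3 longer and 1 shorter, against 29.3% and 17.5% of all genes. This alternative was chosen after seeing the data, as were those of the upstream and internal regions. With 1 replicate left out, the share of all genes was not computed, and separate groups are more frequent with fewer libraries. Those counts are therefore no result about the enzymes. Within 1 kb of a start site the difference was -0.03 at KMT2B (also with the canonical start alone), -0.41 at SETD1B, whose upstream region then drops out, and -0.01 at KDM5B. Centring gave -0.05 at KMT2D, -0.09 at KDM5B and -0.10 at EZH2, and equal numbers of peaks gave percentile differences of -2.45 at KMT2B and -1.02 at EZH1; the cause was not tested. With the region of highest mean percentile per gene, 1 enzyme (KDM6B) had every OA library higher. The share of all genes was not computed for this choice, and was 8.94% for the region nearest to the start. With peaks covering at least 50% of a region, 2 genes were shorter (ZFP36L1 and SLC18B1, named after their values were seen), none of them an enzyme. At this setting 7 of the 10 enzymes had a peak in all 6 libraries, as did 7035 of the 20007 protein-coding genes. The replicate block called 14 genes longer and no enzyme. The correlations of deviations between same-numbered vehicle and OA libraries were 0.03, 0.11 and -0.26, and not every library correlated best with its own number. With 3 libraries per condition, these values cannot settle whether same-numbered samples were paired. No H3K27me3 library had a peak near the enzymes, so the H3K27me3 alternatives could not change that count. Depth is unknown, peak edges depend on it, and an exact permutation test of 3 libraries against 3 cannot go below p = 0.1.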
